A study of Homo sapiens with 15 samples.

Results

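The promoters and nearby enhancers of 10 cell cycle genes were described in a breast cancer cell line and its metastatic derivatives: CDKN2A, CDKN2B and their neighbour MTAP on chromosome 9p21, the CDK inhibitors CDKN1A and CDKN1B, the tumor suppressor RB1, and the growth-promoting genes CCND1, CDK4, CDK6 and MYC. For each gene, H3K4me3 peaks within 2 kb of a protein-coding transcript start were taken, together with H3K27ac peaks within 100 kb whose nearest protein-coding start belonged to it. This gave 8 of 22572 H3K4me3 peaks and 39 of 62195 H3K27ac peaks. Peaks were found for 7 of the 10 genes, and 3 genes (CDKN2A, CDKN2B and MTAP) had no peak of either mark.

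MDA-MB-231 cells come from a human breast cancer that lacks the hormone receptors and HER2. The parental population (Par) was compared with LM2 and BrM2, sub-populations selected in mice for growth in the lung and in the brain. Each derivative is a single selected population of one line, and all 3 were cultured for 3 days in medium with 10% serum and fixed in 1% formaldehyde for 10 min, with no other treatment. Each line had 2 replicate libraries per mark (12 in all). The 3 input samples were not analysed here.

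In the cell cycle, cyclin D (CCND1) binds CDK4 or CDK6, and these kinases phosphorylate the retinoblastoma protein (RB1), which releases E2F transcription factors and lets the cell enter DNA synthesis. The INK4 proteins made by CDKN2A and CDKN2B block CDK4 and CDK6, while p21 (CDKN1A) and p27 (CDKN1B) act mainly on later kinases. CDKN2A also encodes ARF, which protects p53. MTAP, an enzyme that salvages methionine and adenine, lies next to CDKN2A, and the transcription factor MYC drives growth and cyclin expression. H3K4me3 marks active or poised promoters, and H3K27ac marks active promoters and enhancers.

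The promoter sequences of the 3 genes without a peak and of RB1 and CCND1 are shown so that promoters with and without a called peak can be read side by side. Each is the 150 bases before the main annotated start in hg19, written 5′ to 3′ on the strand of the gene. Capitals mark the GC box (GGGCGG), the CCAAT box (CCAAT) and E2F-type letters (TTTCGCGC, TTTGGCGC, TTTCCCGC or TTTGCCGC) on either strand. CDKN2A lies at chr9:21974857-21975006 on the minus strand, CDKN2B at chr9:22009305-22009454 on the minus strand, and MTAP at chr9:21802485-21802634 on the plus strand. The RB1 stretch is chr13:48877737-48877886 and that of CCND1 is chr11:69455774-69455923, both on the plus strand.
CDKN2A: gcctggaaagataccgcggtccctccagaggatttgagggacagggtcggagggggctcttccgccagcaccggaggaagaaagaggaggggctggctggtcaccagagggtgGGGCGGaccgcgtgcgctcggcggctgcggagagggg
CDKN2B: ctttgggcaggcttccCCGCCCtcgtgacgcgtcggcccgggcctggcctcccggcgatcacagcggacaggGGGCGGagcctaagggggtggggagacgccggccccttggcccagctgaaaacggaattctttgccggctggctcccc
MTAP: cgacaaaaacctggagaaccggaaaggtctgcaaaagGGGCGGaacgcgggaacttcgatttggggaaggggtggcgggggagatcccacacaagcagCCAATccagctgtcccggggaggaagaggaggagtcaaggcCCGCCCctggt
RB1: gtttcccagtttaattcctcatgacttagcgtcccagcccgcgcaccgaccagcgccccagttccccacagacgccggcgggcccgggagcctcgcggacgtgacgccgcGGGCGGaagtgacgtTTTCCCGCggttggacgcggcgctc
CCND1: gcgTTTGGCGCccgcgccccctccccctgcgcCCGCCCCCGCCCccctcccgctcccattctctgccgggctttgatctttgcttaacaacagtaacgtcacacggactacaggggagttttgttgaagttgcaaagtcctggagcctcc

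From 250 bases before to 50 after the start, a GC box was found in all 10 genes, against 61.8% of 19528 protein-coding promoters. E2F-type letters were found in RB1 (25 bases before the start), CCND1 (147 before) and MYC (64 before), against 4.4% of promoters. The E-box CACGTG, the letters that MYC with its partner MAX can bind, was found 3 times before CDK4 and once after the start of CDK6, against 8.8% of promoters. TATA box letters (TATAAA) were found in MTAP and MYC, against 9.6%, CCAAT in MTAP and CDKN1B, against 36.1%, and the AP-1 letters TGACTCA in 0 of the 10, against 3.5%. These matches describe the windows and were not tested as binding sites.

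To ask how the 9p21 genes were marked, the nearest peaks on both sides were located. No consensus peak of either mark lay between chr9:20735599 and chr9:25677090, a stretch of 4.941 Mb. It held the starts of 24 protein-coding genes, among them CDKN2A, CDKN2B and MTAP, 16 interferon genes, and HACD4, KLHL9, DMRTA1, ELAVL2 and IZUMO3. Over the genome, 69.6% of 19794 protein-coding genes had a promoter H3K4me3 peak.

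**Figure D1:**
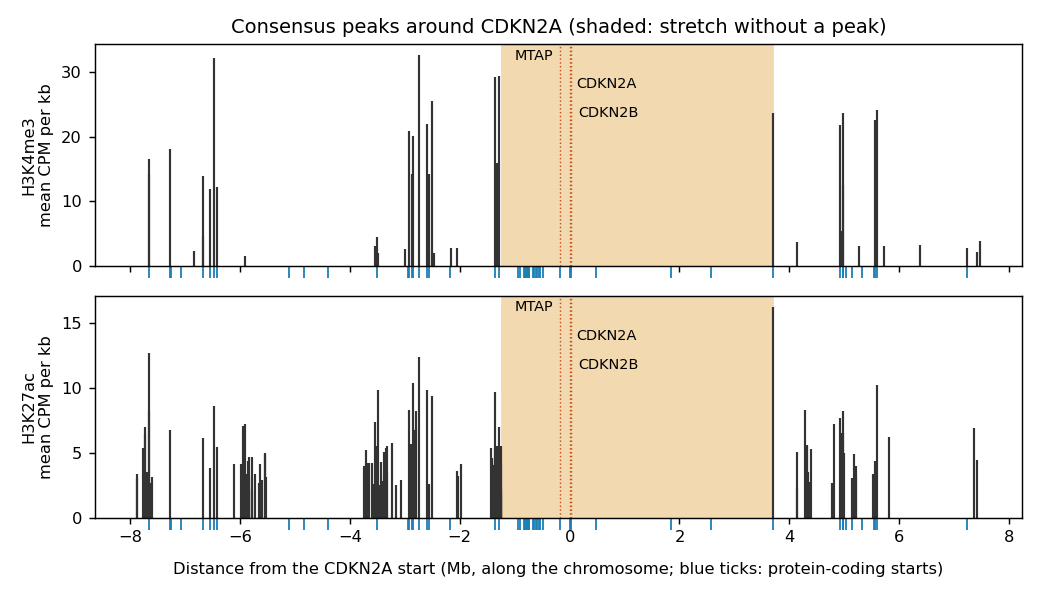
Consensus peaks of H3K4me3 (top) and H3K27ac (bottom) along chromosome 9, as distance in Mb from the CDKN2A start, with the mean CPM per kb over 6 libraries as bar height and protein-coding starts as blue ticks. The shaded stretch of 4.941 Mb around MTAP, CDKN2A and CDKN2B held no bar of either mark although 24 genes start in it.

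Of the 64730 stretches between neighbouring peaks, 5 were at least as long as this one, itself included, and 5 held at least as many genes. It was the only 1 that met both limits, but these are its own length and gene count, so this is not a test of how unusual it is. The median stretch measured 12080 bp. The 4 longer ones, on chromosomes 1, 9, 16 and 7, held 0, 1, 1 and 3 protein-coding genes. A stretch on chromosome 11 (chr11:51579797-56169425, 4589629 bp) was slightly shorter and held 36.

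Peaks on both edges were counted in all 6 libraries. On the telomeric side, where FOCAD lies, the last sizeable H3K27ac peak (chr9:20730710-20733486) had 14.6 and 11.2 CPM (counts per 1000000 reads in peaks) in Par, 16.6 and 18.6 in LM2, with 16.1 and 15.0 in BrM2. On the other side, the promoter H3K4me3 peak of TUSC1 (chr9:25677191-25678966) had 36.1 and 33.1 CPM in Par, 54.4 and 45.0 in LM2, with 47.6 and 35.7 in BrM2. The edges were therefore marked in all 3 lines. From the telomeric edge, MTAP started 1067037 bp away, CDKN2A 1235733 bp and CDKN2B 1273673 bp, so the lack of a peak did not depend on the 2 kb and 100 kb limits. Counts were deposited only inside peaks, so no level could be given for these 3 genes in any line. Lack of the marks and lack of the DNA itself cannot be told apart without a signal outside peaks. Of 19 genes listed around 9p21, 3 (MLLT3, FOCAD and TUSC1) had a promoter H3K4me3 peak, or 15.8%. Apart from these 3 and SLC24A2, the listed genes start inside the stretch, so their lack of a peak only repeats its definition.

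Other CDK inhibitors were marked. The promoters of CDKN2C and CDKN2D, the INK4 genes outside 9p21, had mean H3K4me3 of 177 and 208 CPM over the 6 libraries, that of CDKN1C (p57) had 185 CPM, and that of CDKN3, a phosphatase that acts on CDKs, had 65.0 CPM.

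The promoter H3K4me3 peaks of the other 7 genes, called on merged libraries, had counts in every library. CDK4 had a pair of peaks, 1 at its main start and 1 at an upstream start. The upstream peak also covered a start of MARCHF9, so its level cannot be assigned to CDK4 alone. The CDKN1B peak, 13662 bp long, also covered starts of APOLD1. Per kb of peak, so that levels can be compared between genes, mean H3K4me3 over 6 libraries ran from 50.5 CPM per kb at CDK4/MARCHF9 through CDKN1A (44.9), CCND1 (41.6), MYC (38.9), CDK6 (35.6) and RB1 (34.4) to CDKN1B (20.9) and the main CDK4 start (19.0). Each neighbour in this order overlapped the next in its range over libraries, so neighbouring ranks were not separated. At the ends, CDK4/MARCHF9 had 43.0 to 58.4 CPM per kb and the main CDK4 start 9.79 to 26.7. By total CPM, CCND1, CDKN1B, CDK6 and MYC stood in the top 1% of all H3K4me3 peaks (percentiles of 99.2 to 100), with peaks of 6779 to 13662 bp.

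**Figure D2:**
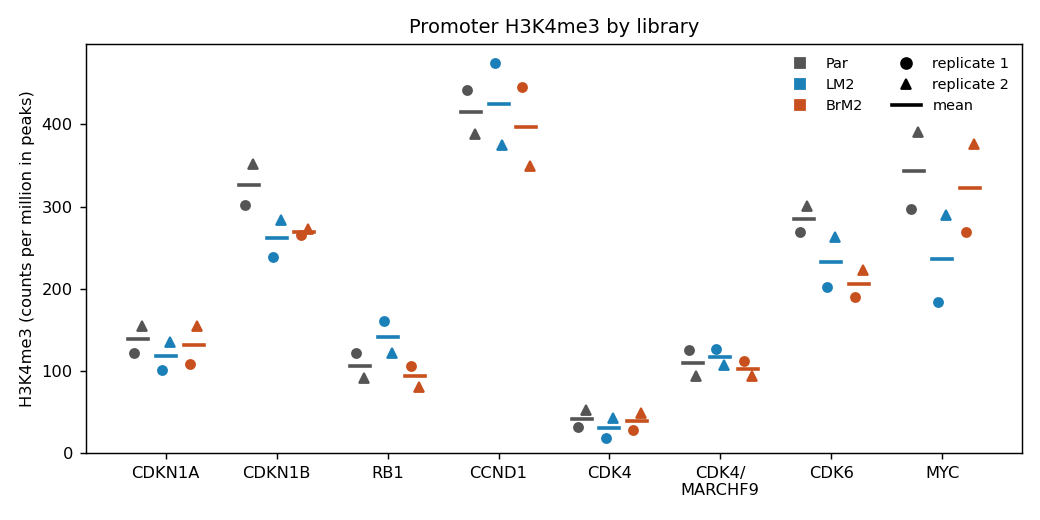
H3K4me3 at the 8 promoter peaks in CPM, with 1 point per library (circles replicate 1, triangles replicate 2) and a line at the mean of the 2 libraries of Par (grey), LM2 (blue) and BrM2 (orange). Both LM2 points lie below both Par points at MYC, while the lines overlap at CCND1, and replicates 1 and 2 keep their order in all 3 lines.

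It was next asked whether these promoters differed between lines. In a fit with no term but the line, 0 of the 8 peaks passed an adjusted p of 0.05 in DESeq2 in LM2 against Par, where 2.51% of all peaks tested did, in BrM2 against Par (3.61%), or in BrM2 against LM2 (3.18%). None had an unadjusted p under 0.05, and edgeR also called 0 of 8 in each comparison (1.61%, 3.07% and 2.81% of all peaks in the same order). Both comparisons with Par use the same Par libraries. In CPM, replicate 2 exceeded replicate 1 in all 3 lines at 5 of the 8 peaks and was below it in all 3 at the other 3. After scaling with the DESeq2 size factors it was above in all 3 lines at 3 peaks, below in all 3 at 4, and mixed at 1. When the replicate number was added to the fit as a block, DESeq2 called 4 of 8 in LM2 against Par (14.4% of all peaks), 2 in BrM2 against Par (17.7%) and 3 in BrM2 against LM2 (22% of all peaks). EdgeR with the block called 6, 5 and 5, beside 26.2%, 33.3% and 38.6% of all peaks. The values below are given with both fits. On the size-factor scale the libraries of LM2 and Par did not overlap at 4 of the 8 peaks, against 34.4% of all peaks tested, those of BrM2 and Par at 4 (39% of all peaks) and those of BrM2 and LM2 at 2 (38.2%). The separation of the lines differed between this scale and CPM at CDKN1A, RB1, CDK6 and MYC. By total CPM the 8 peaks stood at percentiles of 59.1 to 100 of all H3K4me3 peaks. The shares of all peaks are not matched for strength, so they cannot show an excess of calls among these genes.

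The CDK inhibitors came first. CDKN1A H3K4me3 (chr6:36646018-36648903, over its main start) had 122 and 155 CPM in Par, 101 and 136 in LM2, with 109 and 155 in BrM2. The lines overlapped in CPM, while after size factors LM2 and BrM2 were below both Par libraries. Neither DESeq2 fit called a difference, with a log2 fold change of -0.20 in LM2 (95% interval -0.79 to 0.39) and -0.14 in BrM2 (-0.73 to 0.44) against Par. CDKN1B (chr12:12867101-12880762), the p27 gene, had 302 and 352 CPM in Par, 239 and 284 in LM2, with 266 and 273 in BrM2. All libraries of LM2 and BrM2 were below both Par libraries. Against Par, LM2 had a log2 fold change of -0.29 (SE 0.29) and BrM2 one of -0.34 (SE 0.29), with DESeq2 adjusted p of 1 and 0.895, and with the block -0.29 (SE 0.09, adjusted p = 0.00926) and -0.34 (SE 0.09, adjusted p = 0.00115). The surrounding 5 Mb moved in the same direction, with median log2 fold changes of -0.28 in LM2 and -0.27 in BrM2 over 25 peaks. Whether the p27 promoter differed beyond its surroundings was not tested in the blocked fit.

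RB1 (chr13:48876881-48880190), the pocket protein that restrains E2F, had 122 and 91.4 CPM in Par, 161 and 123 in LM2, with 106 and 80.8 in BrM2. LM2 was highest within both replicate numbers, and BrM2 lowest. The log2 fold change of LM2 against Par was 0.44 (SE 0.39, DESeq2 adjusted p = 1; with the block 0.44, SE 0.12, adjusted p = 0.00309). In BrM2 against LM2 it was -0.70 (SE 0.39, adjusted p = 0.541; with the block -0.69, SE 0.12, adjusted p = 1.7e-07). In BrM2 against Par it was -0.26, with no call in either DESeq2 fit. Peaks on chromosome 13 moved alike: their median log2 fold change over 251 peaks was 0.48 in LM2 against Par and -0.59 in BrM2 against LM2. The RB1 value was thus near that of its chromosome.

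Among the genes that drive the cycle, CCND1 (chr11:69450821-69460728), encoding cyclin D1, had 441 and 389 CPM in Par, 475 and 375 in LM2, with 445 and 349.7 in BrM2. The 3 lines overlapped and neither DESeq2 fit called a difference, with a log2 fold change of 0.08 in LM2 (95% interval -0.63 to 0.79) and -0.12 in BrM2 (-0.83 to 0.59) against Par. At its main start (chr12:58144741-58146710), CDK4 had 32.1 and 52.6 CPM in Par, 19.3 and 43.1 in LM2, with 28.2 and 49.6 in BrM2. At the upstream peak, which also covers a MARCHF9 start (chr12:58148209-58150387), the values were 126 and 93.8, 127 and 108, and 112 and 93.7 CPM. Neither CDK4 peak was called in either DESeq2 fit, and the lines overlapped at both.

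CDK6 (chr7:92460289-92467067), the kinase partner of the D cyclins alongside CDK4, had 269 and 301 CPM in Par, 203 and 263 in LM2, with 189.7 and 223 in BrM2. Par was highest and BrM2 lowest within both replicate numbers. Against Par the log2 fold change was -0.27 (SE 0.29, DESeq2 adjusted p = 1; with the block -0.26, adjusted p = 0.0353) in LM2 and -0.53 (SE 0.29, adjusted p = 0.531; with the block -0.53, adjusted p = 5.94e-07) in BrM2. BrM2 against LM2 gave -0.26 (adjusted p = 0.914; with the block -0.27, adjusted p = 0.0231). Chromosome 7 was lower as a whole, with medians over 656 peaks of -0.23 in LM2 and -0.35 in BrM2 against Par, and the 19 peaks in the 5 Mb around CDK6 had a median of -0.58 in BrM2.

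MYC (chr8:128746230-128753963) had 297 and 391 CPM in Par, 184 and 289.6 in LM2, with 269 and 377 in BrM2. Both LM2 libraries were below both Par libraries, and BrM2 lay between LM2 and Par within both replicate numbers. The log2 fold change of LM2 against Par was -0.52 (SE 0.30, DESeq2 adjusted p = 0.718; with the block -0.52, SE 0.09, adjusted p = 3.75e-07), and that of BrM2 against LM2 was 0.36 (SE 0.30, adjusted p = 0.819; with the block 0.36, adjusted p = 5.85e-04). BrM2 against Par gave -0.16 (95% interval -0.74 to 0.43), with no call in either DESeq2 fit. The chromosome 8 medians were 0.13 in LM2 against Par and -0.10 in BrM2 against LM2, over 464 peaks, opposite in sign to MYC. Only 5 peaks lay in the surrounding 5 Mb, with medians of -0.17 and 0.24, of the same sign as MYC. In LM2 against Par, 0 of these 5 were above 0.

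**Figure D3:**
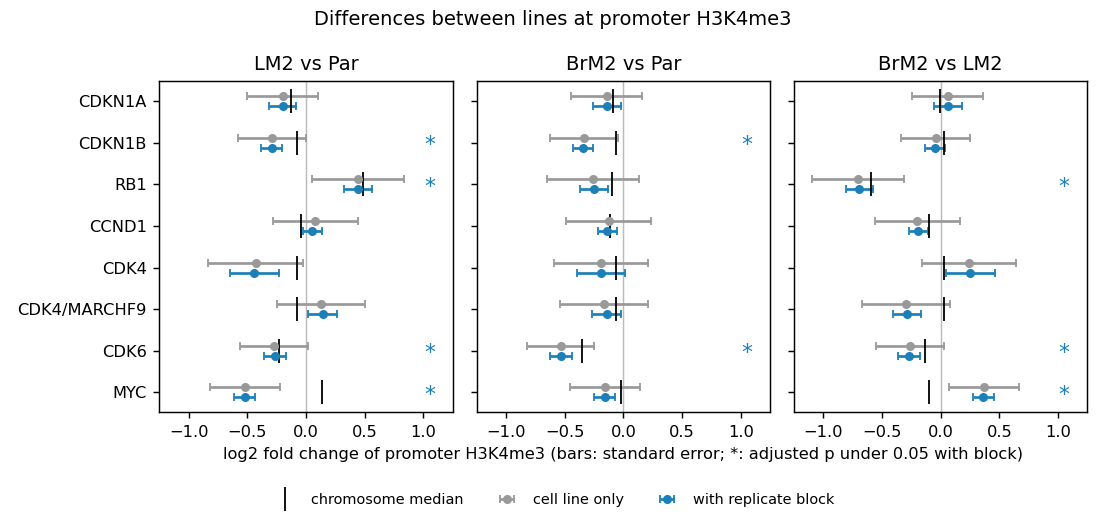
Log2 fold changes of promoter H3K4me3 at the 8 peaks in the 3 comparisons, with standard errors as bars, from the fit with cell line only (grey) and with the replicate block (blue), and the median of the chromosome as a black tick. Stars mark an adjusted p under 0.05 with the block (4, 2 and 3 peaks), where the estimates barely move but the bars shrink. RB1 lies near its chromosome median and MYC in LM2 far from it.

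For H3K27ac, the genes differed in how much of the mark lay outside the promoter. CDK6 had 17 peaks, MYC 8, CCND1 7, CDKN1A 3, CDK4 2, and CDKN1B and RB1 1 each. Of the 39 peaks, 8 overlapped a promoter H3K4me3 peak of the gene and 31 did not. At MYC, 77.0% to 85.6% of the summed CPM in a library lay outside the promoter peak, at CDK6 64.4% to 75.5%, at CCND1 17.2% to 31.9% and at CDKN1A 10.2% to 18.5%. At CDKN1B, RB1 and CDK4 it was 0%. Of the CDK6 peaks, 13 lay inside the gene, 12 of them in introns only, and 4 of the MYC peaks lay in the long noncoding RNA gene PVT1 downstream of it. Only protein-coding starts were used for assignment, so signal at PVT1 counts here as MYC signal outside the promoter. Whether these peaks act on MYC was not tested.

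**Figure D4:**
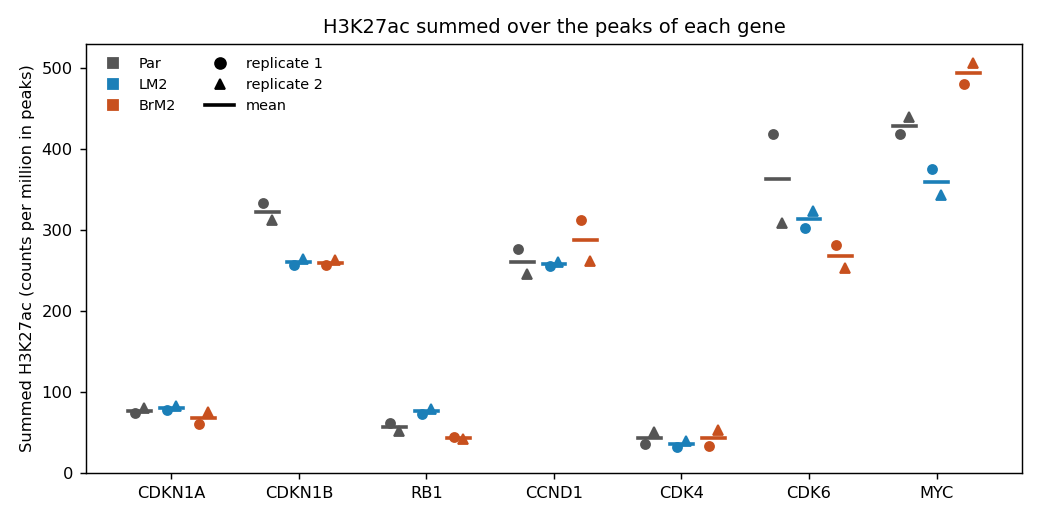
H3K27ac in CPM summed over the peaks of each of the 7 genes, 1 point per library (circles replicate 1, triangles replicate 2) with a line at the mean of the 2 libraries of each line. BrM2 lies highest at MYC and lowest at CDK6 and RB1, and Par highest at CDKN1B.

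Summed over peaks, MYC H3K27ac was 418 and 439.8 CPM in Par, 375 and 344 in LM2, with 480.5 and 506 in BrM2, without overlap between the lines. CDK6 had 418 and 308 CPM in Par, 302 and 323 in LM2, with 282 and 253 in BrM2, and the CDKN1B peak had 333 and 312, 257 and 264, and 257 and 263. RB1 had 61.1 and 51.9 CPM in Par, 73.3 and 79.0 in LM2, with 43.8 and 42.1 in BrM2. In these sums BrM2 was above both other lines at MYC. This rested on the longest PVT1 peak, and without it, a setting chosen after seeing the data, the sums were 238 and 256 CPM in Par, 204 and 202 in LM2, with 221 and 258 in BrM2, so that BrM2 overlapped Par. BrM2 was below both other lines at CDK6 and RB1, while LM2 and BrM2 overlapped at CDKN1B and were below Par. The sums themselves were not tested. They cover the same peak length in every library.

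At the 8 promoter peaks of H3K27ac, 0 were called in any comparison by DESeq2 with line alone or by edgeR, where DESeq2 called 3.63% of all peaks tested in LM2 against Par, 5.29% in BrM2 against Par and 2.94% in BrM2 against LM2. An unadjusted DESeq2 value under 0.05 was found only for MYC in LM2 against Par (log2 fold change -0.61, SE 0.29, DESeq2 adjusted p = 0.341) and for RB1 in BrM2 against LM2 (-0.76, SE 0.28, DESeq2 adjusted p = 0.138). The MYC promoter had 77.8 and 101 CPM in Par, 54.0 and 68.6 in LM2, with 74.4 and 96.7 in BrM2. The 58 peaks in the 5 Mb around it had a median of -0.40 in LM2 against Par, with 8 above 0. With the block the RB1 promoter was called (-0.76, adjusted p = 0.0322), beside a chromosome 13 median of -0.46. At the CDK6 promoter (103 and 93.7 CPM in Par, 100.5 and 115 in LM2, 87.9 and 70.7 in BrM2) and at those of CCND1, CDKN1A, CDKN1B and CDK4, neither DESeq2 fit called a difference. At CDKN1B the log2 fold change against Par was -0.37 in LM2 and -0.31 in BrM2. The 53 peaks in the 5 Mb around it had medians of -0.35 and -0.39.

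Across all 39 peaks, of which 34 were tested after low-count filtering, LM2 against Par gave 1 call, higher in LM2, against 3.63% of all peaks tested. It was also the 1 call of the blocked fit (5.44% of all peaks) and of edgeR (5.14%). That peak (chr11:69368967-69370627) is intergenic and lies 85297 bp upstream of CCND1. It had raw counts of 3 and 9 in Par, 68 and 41 in LM2, with 13 and 7 in BrM2, or 0.684 and 2.35 CPM, 10.5 and 10.9 CPM, and 3.31 and 3.51 CPM. Both LM2 libraries exceeded every other library. The log2 fold change against Par was 2.79 (SE 0.69, DESeq2 adjusted p = 0.00391; with the block 2.86, adjusted p = 0.0024), where the median of the surrounding 5 Mb was -0.29 over 81 peaks. BrM2 against LM2 gave -1.59 (SE 0.65, adjusted p = 0.195). The call was lost without Par replicate 1 (adjusted p = 0.265), LM2 replicate 1 (0.246) or LM2 replicate 2 (0.179), with a log2 fold change from 2.12 to 3.91 over all left-out libraries.

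The 300 bases at the centre of this peak, chr11:69369647-69369946 on the plus strand of hg19, are shown because it is the one listed peak called higher in LM2. They hold neither the AP-1 letters TGACTCA nor the E-box CACGTG on either strand, which would be in capitals. Of the central 300 bases of all H3K27ac peaks, 9.7% and 4.0% hold them.
CCND1 upstream peak: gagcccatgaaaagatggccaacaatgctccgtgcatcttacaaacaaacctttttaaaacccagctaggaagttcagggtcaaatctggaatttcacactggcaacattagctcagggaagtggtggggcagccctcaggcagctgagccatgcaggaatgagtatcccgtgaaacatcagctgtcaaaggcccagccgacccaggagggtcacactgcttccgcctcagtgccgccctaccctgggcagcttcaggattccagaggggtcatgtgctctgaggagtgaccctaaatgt

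The other CCND1 peaks outside the promoter lay 51234 to 98700 bp upstream and none passed the test. Of these, the densest (chr11:69389880-69390464, 65460 bp upstream) had 3.42 and 4.70 CPM in Par, 4.03 and 4.26 in LM2, with 3.31 and 5.01 in BrM2, with the lines overlapping. In LM2 against Par, 5 of the 7 CCND1 peaks, the promoter peak included, had a log2 fold change above 0, with a median of 0.28. In BrM2 against Par it was 6 of the 7, with a median of 0.16. At the peaks 80832 bp upstream (0.74, SE 0.61, DESeq2 adjusted p = 0.76) and 71977 bp upstream (0.28, SE 0.32, adjusted p = 0.869), both LM2 libraries were above both Par libraries. BrM2 overlapped Par at the first. At the second it was above both other lines, with 38.7 and 43.6 CPM against 31.2 and 28.2 in LM2. Its log2 fold change there against Par was 0.82 (SE 0.32, DESeq2 adjusted p = 0.134).

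In BrM2 against Par, 0 of the 36 tested H3K27ac peaks were called by DESeq2, against 5.29% of all peaks tested, while 7 of the 39 had an unadjusted p under 0.05. The median log2 fold change over all 39 was -0.20, against -0.01 over all peaks, and 26 were below 0. Most of these belonged to CDK6, where 16 of 17 peaks were below 0 with a median of -0.69. The chromosome 7 median of H3K27ac was -0.33 and that of the 5 Mb around the CDK6 promoter -0.61, so the lower values extended over the region. EdgeR called 1 (6.88% of all peaks tested), the MYC peak downstream of the gene. On the size-factor scale BrM2 and Par did not overlap at 16 of the 36 peaks (52% of all tested), LM2 and Par at 19 of 34 (44.3%), and BrM2 and LM2 at 16 of 32 (48.9%).

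With the block, 2 of the 34 peaks tested were called in BrM2 against Par, both lower (8.13% of all peaks in either direction). One lies in an intron of CDK6 (chr7:92391671-92398440, 64791 bp into the gene) and was the densest CDK6 peak outside the promoter, with 76.9 and 56.1 CPM in Par, 39.1 and 43.9 in LM2, with 40.3 and 38.1 in BrM2. All LM2 and BrM2 libraries were below both Par libraries. Against Par its log2 fold change was -0.76 in BrM2 (SE 0.31, adjusted p = 0.146; with the block -0.76, adjusted p = 0.049) and -0.75 in LM2 (SE 0.30, adjusted p = 0.176; with the block -0.74, adjusted p = 0.0592).

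The second peak was called in BrM2 against LM2 also without the block, where it was the single call among 32 tested peaks of these genes (2.94% of all peaks tested), while edgeR called 2 (3.89%). It is intergenic, 21545 bp downstream of the nearest MYC start (chr8:128771536-128774113). It had 13.0 and 17.5 CPM in Par, 20.0 and 18.6 in LM2, with 3.57 and 8.52 in BrM2, so both BrM2 libraries were below the other 4. The log2 fold change of BrM2 against LM2 was -1.70 (SE 0.49, DESeq2 adjusted p = 0.023; with the block -1.75, adjusted p = 0.00568) and that of BrM2 against Par was -1.42 (SE 0.49, adjusted p = 0.0651; with the block -1.43, adjusted p = 0.0324). The median of the surrounding 5 Mb in BrM2 against LM2 was 0.49 over 59 peaks, of opposite sign. The call against LM2 was lost without Par replicate 1 (adjusted p = 0.059) or 2 (0.06), LM2 replicate 1 (0.372) or 2 (0.261), or BrM2 replicate 1 (0.924, with a log2 fold change of -1.11).

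The 4 peaks in PVT1 had log2 fold changes of -0.22 to 0.77 in BrM2 against LM2, and none passed the test with line alone. The longest (chr8:128812868-128828639, 15772 bp) had 179 and 184 CPM in Par, 171 and 141 in LM2, with 259.7 and 248 in BrM2, both BrM2 libraries being above the rest. Its log2 fold change against LM2 was 0.77 (SE 0.24, DESeq2 adjusted p = 0.0521; edgeR 0.0301; with the block 0.77, SE 0.18, adjusted p = 0.00119), beside a 5 Mb median of 0.49. The densest MYC peak outside the promoter (chr8:128806061-128811978) is also one of these and overlaps an exon of PVT1. It had 88.9 and 78.6 CPM in Par, 68.4 and 71.3 in LM2, with 80.0 and 94.7 in BrM2 and was not called. With the block, BrM2 against LM2 thus gave 3 calls of 29 tested (6.17% of all peaks): the RB1 promoter and the peak downstream of MYC lower, and the longest PVT1 peak higher. EdgeR with the block called 6, 7 and 7 of the 39 H3K27ac peaks in LM2 against Par, BrM2 against Par and BrM2 against LM2, beside 13.2%, 15.9% and 12.5% of all peaks.

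**Figure D5:**
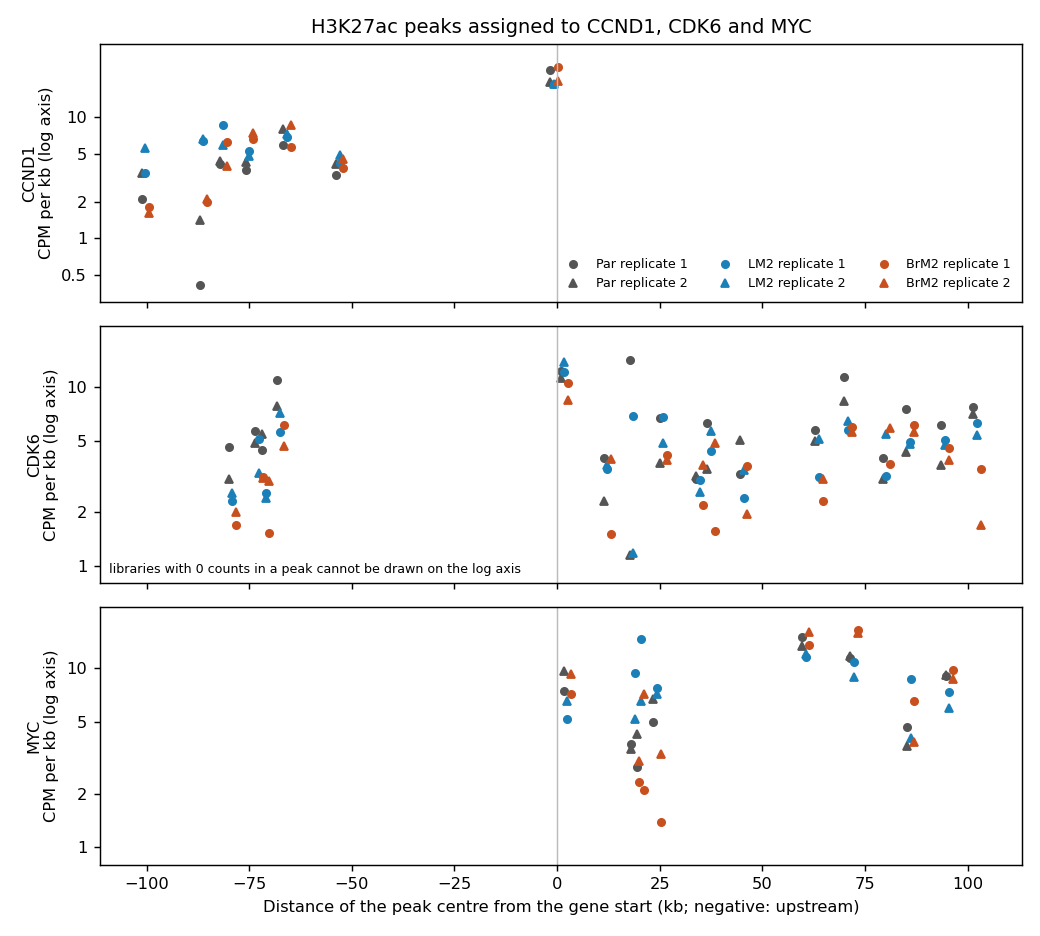
H3K27ac in CPM per kb (log axis) at each peak of CCND1, CDK6 and MYC, against the distance of the peak centre from the gene start in kb, with negative values upstream. Points of the 3 lines are set slightly apart, and a CDK6 peak with 0 counts in both BrM2 libraries is not drawn for them. LM2 stands above Par and BrM2 at the CCND1 peak 85297 bp upstream, and BrM2 below the others at the peak 21545 bp downstream of MYC.

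CDKN1A had 2 further H3K27ac peaks, 25975 and 8135 bp upstream of its nearest start. The denser was 226 bp long, with 1.14 and 1.83 CPM in Par, 4.34 and 2.93 in LM2, with 1.27 and 2.01 in BrM2, and was not called in any fit of DESeq2. CDK4, CDKN1B and RB1 had H3K27ac at their promoters only.

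Other genes of the pathway were read from 6 lists (cyclins and CDKs, CDK inhibitors, RB family and E2F, MYC network, p53 axis, replication and mitosis) of 67 genes. All 66 that were annotated as protein-coding had a promoter H3K4me3 peak. Without the block, 0 of 66 were called by DESeq2 in any comparison. Of all peaks tested, 2.51% were called in LM2 against Par, 3.61% in BrM2 against Par and 3.18% in BrM2 against LM2. Against Par the median log2 fold change of these promoters was -0.08 for LM2 and -0.05 for BrM2, beside 0.02 and -0.02 over all peaks. With the block, 3 were higher and 4 lower in LM2 than in Par, where 8.9% and 5.49% of all peaks were. The higher ones were the E2F partners TFDP1 and TFDP2 and E2F2, with log2 fold changes of 0.49, 0.52 and 0.53. TFDP1 lies on chromosome 13, whose median was 0.48. The lower ones included SFN (14-3-3 sigma, -0.66), the replication helicase subunit MCM7 (-0.50) and MDM2, the ligase that degrades p53 (-0.44).

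In BrM2 against Par the blocked fit gave 6 higher and 5 lower, beside 8.55% and 9.11% of all peaks. The largest log2 fold changes with the block were those of MYCN (2.56), a MYC paralog whose promoter peak averaged 2.16 CPM, the D cyclin CCND2 (0.68) and E2F6 (0.59) among the higher, and MDM2 (-0.56), MCM7 (-0.52) and E2F5 (-0.48) among the lower. BrM2 against LM2 gave 7 in each direction (8.99% and 13% of all peaks), with MYCN (3.04), SFN (0.94) and CDC20, an activator of the anaphase-promoting complex (0.74), leading the higher, and TFDP2 (-0.66), MYCBP2 (-0.64) and TFDP1 (-0.54) leading the lower. TFDP1 and MYCBP2 lie on chromosome 13, as RB1 does, where the median was -0.59 in BrM2 against LM2.

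The libraries held 3489607 to 9839629 counts in H3K4me3 peaks and 1994996 to 6450028 in H3K27ac peaks, BrM2 replicate 2 of H3K27ac being the shallowest. The labelled cell type was checked with promoter H3K4me3. All 6 genes known to be active in this mesenchymal line (VIM, CD44, AXL, CAV1, KRT8 and KRT18) had a peak, at 81.3 to 221 CPM. KRT8 and KRT18 had the same peak, and 69.6% of all protein-coding genes had a promoter peak. All 7 genes of the hormone receptor and luminal list had one too, at 5.32 to 86.2 CPM, of which 1, 2 and 1 were called higher in LM2 against Par, BrM2 against Par and BrM2 against LM2, beside 1.97%, 2.82% and 2.05% of all peaks. These were ESR1 in LM2 against Par (log2 fold change 2.52), and ESR1 (1.62) and FOXA1 (1.45) in BrM2 against Par. In BrM2 against LM2 it was PGR (2.50). Of 5 annotated markers of leukocytes, endothelium, fibroblasts and liver, 1 (COL1A1, 23.7 CPM) had a peak, and the others had none.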

How the data were processed

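H3K4me3 and H3K27ac ChIP-seq of Par, LM2 and BrM2 gave 12 libraries with counts, 2 per line and mark, grouped by the sample titles, which give the replicate numbers. The study's methods call the replicates biological, and the labels do not say whether they were separate cultures. Fixation was 10 min per the labels and 15 min in the study's methods.

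Per the submitters' processing notes, reads were trimmed with Trimmomatic 0.32, aligned to hg19 with Bowtie2 2.3.4.3, cleared of duplicates with Picard 2.18.21, and MACS2 2.1.2 called peaks on merged libraries. The names of the merged peak sets in the labels include a further population (BoM) that was not analysed here, and peaks called on pooled reads can miss regions marked in 1 line only. For each consensus peak the deposited files give raw counts, which the authors obtained with featureCounts 1.6.0 from reads extended to 150 bases and did not normalize. All 12 count columns matched a sample, with 0 columns unmatched.

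CPM are counts per 1000000 reads in peaks. Peaks were assigned with protein-coding transcript starts of GENCODE release 44 on hg19, from the peak edge, and sequences were read from the hg19 genome. All peaks of a mark were tested with DESeq2 1.42.0 (R 4.3.3; Wald test, cell line as the only term, median-of-ratios size factors, default independent filtering, Benjamini-Hochberg adjustment, threshold 0.05). The 95% intervals are from the fitted standard errors. edgeR 4.0.16, TMM, a minimum of 10 counts, no independent filtering, centring on chromosome or 5 Mb medians, leaving out each library, and narrower assignment rules were alternatives. Medians of chromosomes and 5 Mb windows use peaks averaging at least 50 normalized counts.

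Replicate numbers were used to pair the libraries. Deviations of same-numbered libraries from their line means correlated with r = 0.843, 0.788 and 0.825 for H3K4me3 and 0.407, 0.607 and 0.48 for H3K27ac. The pairing rests on the numbers and on these correlations, as no shared day is named in the labels. In every line replicate 2 was the deeper H3K4me3 library and replicate 1 the deeper H3K27ac library. Whether the correlations follow depth was not tested. Values with the replicate number as a block term stand beside results whose call they change. Scripts were tested on simulated data.

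All 10 genes are named, with all promoter H3K4me3 peaks, the H3K27ac peaks that overlap them, the densest other H3K27ac peak per gene, and every called peak. From the pathway lists, up to 3 genes with the largest change per comparison and direction are named. The members and lists were chosen with earlier results of these data known.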

Additional observations from a re-analysis of the deposited data

Results flagged for a closer look

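The H3K27ac peak downstream of MYC differed between both metastatic lines by a test of the difference itself, with a log2 fold change of -1.70 in BrM2 against LM2 (DESeq2 adjusted p = 0.023, lower in 2 of 2 BrM2 libraries). Over 14 alternatives the log2 fold change ran from -2.37 to -1.11 and the adjusted p from 1.79e-04 to 0.924, and 9 alternatives called it.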

How the results depend on the processing

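Replicate pairing moved the counts most. Of the 8 H3K4me3 promoter peaks, 0 were called with cell line only, and with the replicate block DESeq2 called 4 in LM2 against Par, 2 in BrM2 against Par and 3 in BrM2 against LM2, and edgeR with the block 6, 5 and 5. Of the H3K27ac peaks, 1, 0 and 1 were called with cell line only in the same order. With the replicate block DESeq2 called 1, 2 and 3, and edgeR 6, 7 and 7. The block changed no other DESeq2 call of a listed peak. The blocked fit keeps 2 residual degrees of freedom, and its calls were not tested without single libraries.

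edgeR without the block called 1 H3K27ac peak in BrM2 against Par and 2 in BrM2 against LM2. Centring on chromosome medians gave 1 and on 5 Mb medians 2 in BrM2 against Par. For LM2 against Par, the minimum of 10 counts and the 50 kb limit each gave 0, because the CCND1 peak is left out by construction. Leaving out single libraries gave 0 to 1 calls in LM2 against Par and 0 to 1 in BrM2 against LM2. A leave-one-out fit assumes that a lone library varies like the other lines.

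CDKN2A, CDKN2B and MTAP had no peak under any assignment rule. With the gene record start only, CDKN1B also lost its H3K4me3 peak, because that record starts upstream, at position 12838432 of chromosome 12. Under that rule CDK4 kept 1 of its 2 peaks in each mark. The H3K27ac peaks went from 7 to 8 at CCND1 and from 17 to 16 at CDK6. The 50 kb limit leaves 19 of the 39 H3K27ac peaks. Of 960 log2 fold changes under alternatives, 910 stayed on the same side of the threshold, 42 passed it anew and 8 no longer passed it. The sign differed in 83, of which 24 came with chromosome or 5 Mb medians removed and 48 with a library left out, and in 0 of them was the value called in either setting. Low counts limit the smallest H3K27ac peaks.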
